A study of Mus musculus with 8 samples.

Results

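The 8 genes Hmox1, Fth1, Ftl1, Slc40a1, Slc11a1, Tfrc, Blvrb and Ncoa4 were followed in single immune cells of mouse skin wounds, as a set chosen by name for heme breakdown and iron handling, out of 21755 genes named in the count tables. All 8 were found in every count table. Male C57BL/6J mice received a full-thickness wound on the back, and CD45+ cells were sorted from the wounds on days 1, 3, 5 and 7. Diabetic mice had been given streptozotocin (STZ), a toxin of insulin-producing beta cells, at 120 mg/kg and 4 weeks of age and had been selected for high blood glucose, while control mice had not. The wounds of 5 mice were pooled in each of the 8 libraries, so each group had 1 library on each day, the days serve as the only replicates, and p-values measure the spread between these libraries. STZ diabetes lacks insulin and is not a model of insulin resistance, and red cells were lysed during preparation.

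Macrophages take up dying red cells and free heme at sites of bleeding. Heme oxygenase 1 (Hmox1) opens the heme ring and frees its iron, and biliverdin reductase B (Blvrb) reduces biliverdin and flavins. Freed iron is stored inside a shell of ferritin heavy and light chains (Fth1 and Ftl1), leaves the cell through ferroportin (Slc40a1), and is drawn from phagosomes by Slc11a1 (NRAMP1), while the transferrin receptor (Tfrc) imports iron and Ncoa4 delivers ferritin to lysosomes. Iron regulatory proteins bind stem-loops called iron-responsive elements (IREs) when iron is scarce. An IRE in a 5′ untranslated region (UTR) then blocks translation, and IREs in the 3′ UTR of Tfrc protect its transcript.

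The IREs of the members are shown as possible binding sites of iron regulatory proteins. The search on both UTRs of the sense strand used a bulged C, a stem of 5 bases, the loop CAGTGN and a stem of 5 bases that pairs with the first, with G-T pairs allowed. It found 1 site in the 5′ UTR of Fth1, Ftl1 and Slc40a1 and 4 sites in the 3′ UTR of Tfrc, and none in the other 4 members, which says only that these letters are not in their annotated UTRs. In GRCm38 with GENCODE M21, 28 of 20522 genes (0.136%) had such a site in a 5′ UTR and 126 of 20859 (0.604%) in a 3′ UTR, over UTRs of unequal length. Each site is printed 5′ to 3′ on the gene's strand over 30 bases, with the bulged C and the loop in capitals.
Fth1, chr19:9982731-9982760, plus strand: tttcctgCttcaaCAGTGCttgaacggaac
Ftl1, chr7:45459779-45459808, minus strand: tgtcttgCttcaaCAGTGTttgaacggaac
Slc40a1, chr1:45925465-45925494, minus strand: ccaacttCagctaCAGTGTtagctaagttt
Tfrc, chr16:32631218-32631247, plus strand: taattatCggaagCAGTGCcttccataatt
Tfrc, chr16:32631597-32631626, plus strand: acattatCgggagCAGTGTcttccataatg
Tfrc, chr16:32631662-32631691, plus strand: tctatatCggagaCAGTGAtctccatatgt
Tfrc, chr16:32631709-32631738, plus strand: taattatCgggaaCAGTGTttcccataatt
The ferritin elements of Fth1 and Ftl1 are alike around the loop, and those of Tfrc have AT-rich flanks. Transcript counts do not show the translation that the 5′ UTR elements of Fth1, Ftl1 and Slc40a1 control. The 3′ UTR elements of Tfrc act on its transcript, and their part in its counts was not tested.

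In the same annotation Fth1 lies at chr19:9980598-9985098 and Tfrc at chr16:32608920-32632794 on the plus strand, and Ftl1 at chr7:45457944-45459884 and Slc40a1 at chr1:45908068-45926523 on the minus strand. Hmox1 lies at chr8:75093621-75100589, Slc11a1 at chr1:74375195-74386062, Blvrb at chr7:27447978-27466144 and Ncoa4 at chr14:32159865-32179855, all on the plus strand. Of the 8, only Ftl1 overlaps other annotated genes, Gm10252 and Gm22133, neither of which is in the count tables. Ftl1-ps1, a near copy of Ftl1, held 1.19% to 2.16% of the UMI number of Ftl1 in a library, so a small part of Ftl1 may be counted there.

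Of 38959 barcodes, 35215 passed as cells, and a library held 19236522 to 33842509 unique molecular identifiers (UMIs, 1 for each captured transcript) before that filter. The control library of day 5 stood apart. It lost 28.5% of its barcodes, 27.1% having 20% or more mitochondrial UMIs, its cells had a median of 8463 UMIs against 2601 to 5379 in the others, and 26.2% of its cells stayed unnamed. The barcodes are running numbers, so that barcodes shared by libraries could not be counted, but 0 pairs of cells had identical counts. Ptprc, which encodes CD45, had 14383 to 21591 UMIs in a library. Hemoglobin genes made 0.233 to 5.96 counts per 1000000 UMIs (CPM), highest in the control libraries of days 1 and 3, so red cell RNA was near 0.

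Cells were clustered without the members and 61 other heme and iron genes, and clusters were named from marker lists. Neutrophil-like cells were 13740 of the cells (39.0%), macrophage-like cells 6955, monocyte-like cells 4138, dendritic-like cells 2888, T cell-like cells 2464, NK cell-like cells 529 and osteoclast-like cells 389, while 3907 cells of 1 shallow cluster were left unnamed. The largest neutrophil-like cluster also had immunoglobulin genes (Igkc, Ighg2b) among its leading genes. Neutrophil-like cells fell from 51.1% to 20.8% of cells in diabetic wounds and from 59.9% to 23.0% in control wounds between days 1 and 7, with 7.82% in the control library of day 5. Macrophage-like cells made 2.62%, 15.7%, 8.35% and 27.3% of the cells of diabetic wounds on days 1, 3, 5 and 7 and 3.83%, 13.4%, 44.7% and 50.5% of those of control wounds. Whole-library levels of the members are sums over this mixture. Levels below are CPM of the UMIs of the class, which sum all its cells, so that fewer expressing cells and less RNA per cell cannot be told apart. They are not divided by gene length, since a UMI counts 1 molecule.

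The 8 genes made 2.38% to 3.84% of all UMIs of a library, and Fth1 and Ftl1 together made 2.20% to 3.65%. The class with the highest level differed between the genes. Fth1 and Slc11a1 were highest in neutrophil-like cells in 8 of 8 libraries and Slc40a1 in 7, Ftl1 was highest in macrophage-like cells in 8 and Blvrb in 7, Hmox1 was highest in monocyte-like cells in 6 and macrophage-like cells in 2, and Tfrc was highest in osteoclast-like cells in all 4 libraries that held at least 20 of them and in NK cell-like or mast cell-like cells in the others. Ncoa4 too was highest in osteoclast-like cells in these 4 libraries, and in dendritic-like cells in 2 others and mast cell-like cells in 2, the last from 4 and 1 UMIs. Because classes come from the same cells, these orders are descriptions without a test.

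**Figure D1:**
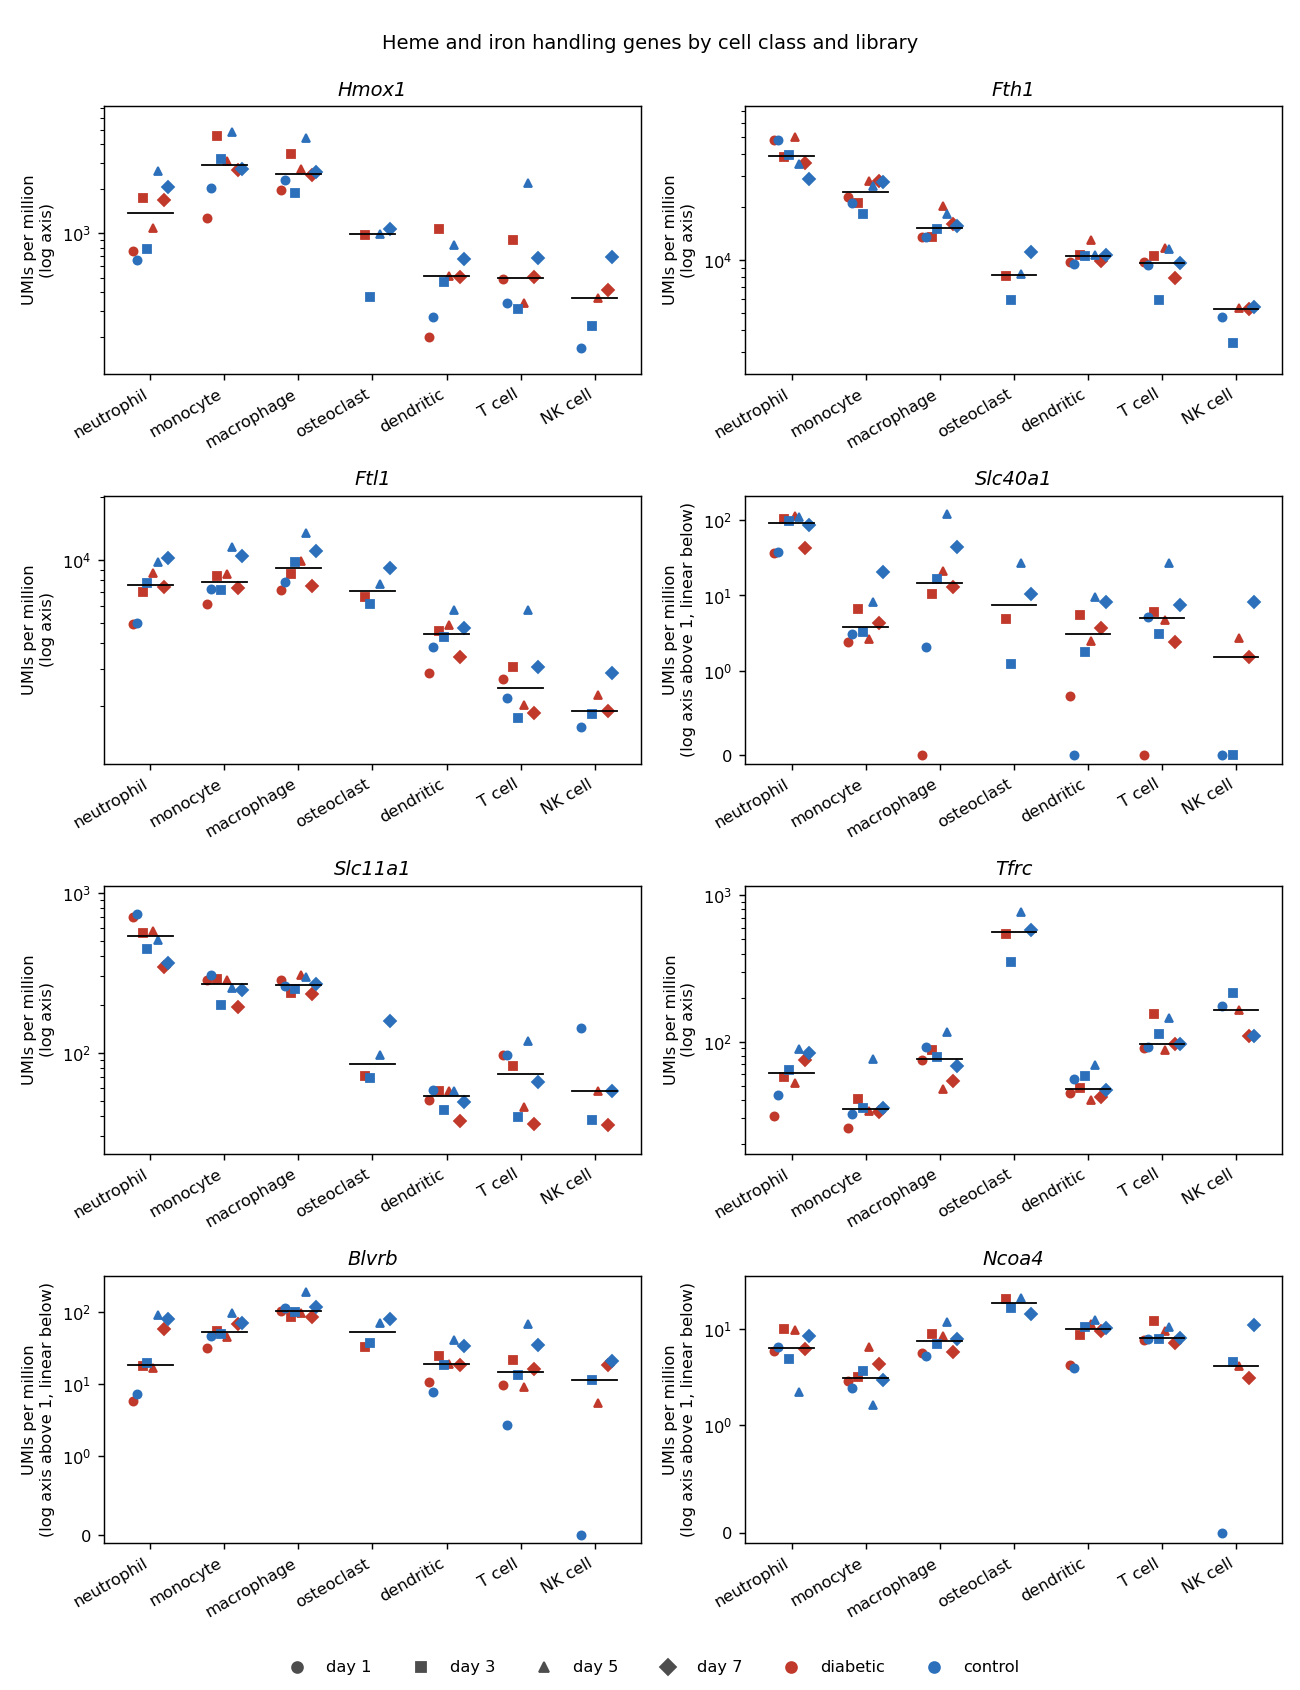
CPM of each gene (vertical axes, log scale, linear below 1 where a value lies under 1) in 7 cell classes, 1 point per library with at least 20 cells of the class; colour marks the wound group, shape the day and the bar the median. Fth1 and Slc11a1 are highest in neutrophil-like cells in 8 of 8 libraries, Blvrb falls from macrophage-like to neutrophil-like cells, and Tfrc stands above all other classes of the plot in the 4 libraries with osteoclast-like cells.

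Among the genes of heme breakdown, Hmox1 in macrophage-like cells was at 1955, 3417, 2732 and 2466 CPM on days 1, 3, 5 and 7 of diabetic wounds and at 2278, 1880, 4377 and 2592 CPM in control wounds. In monocyte-like cells it was at 1278, 4551, 3069 and 2674 CPM in diabetic and 2031, 3198, 4807 and 2722 CPM in control wounds. Both classes peaked on day 3 in diabetic wounds and on day 5 in control wounds, and the group ranges overlapped. The control peak is the library that stood apart, and in macrophage-like cells Ftl1, Slc40a1, Tfrc, Blvrb and Ncoa4 were highest in it too. Neutrophil-like cells had 765, 1730, 1086 and 1676 CPM of Hmox1 in diabetic wounds and 665, 785, 2627 and 2058 CPM in control wounds. The macrophage-like level was 2.19 times the neutrophil-like level (median of 8 libraries, range 1.26 to 3.43), higher in 8 of 8 libraries, as were 37.4% of all genes with 50 UMIs or more.

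T cells are not known as a main site of heme breakdown, and their class was read as the background for Hmox1. Hmox1 in T cell-like cells was at 493, 905, 340 and 510 CPM in diabetic wounds and at 338, 308, 2197 and 685 CPM in control wounds, so the macrophage-like level was 4.40 times as high (range 1.99 to 8.03), with 15% of all genes higher in 8 of 8 libraries. The T cell-like peak fell on the same days as the macrophage-like one, day 3 in diabetic and day 5 in control wounds. Markers of macrophages summed to 4382 and 8347 CPM in T cell-like cells of those libraries, and to 621 to 6055 CPM in the other 6. Their part in Hmox1 was not tested.

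Blvrb was highest in macrophage-like cells. Macrophage-like cells had 103, 85.7, 97.9 and 86.1 CPM on days 1, 3, 5 and 7 of diabetic wounds and 112, 101, 186 and 116 CPM in control wounds. Control wounds were higher on each of the 4 days, and the 2 ranges overlapped only at 101 to 103 CPM. Monocyte-like cells had 31.5 to 97.6 CPM. The macrophage-like level was 5.04 times that of neutrophil-like cells (range 1.43 to 17.8) and higher in 8 of 8 libraries, as were 37.4% of all genes. Osteoclast-like cells had 33.0 CPM in diabetic wounds of day 3 and 36.4, 69.9 and 80.6 CPM in control wounds of days 3, 5 and 7, below macrophage-like cells in each of these libraries. A median of 34.7% of macrophage-like cells had a Blvrb UMI, against 3.33% of neutrophil-like and 5.30% of T cell-like cells. After each cell was thinned to 1000 UMIs these medians were 8.70%, 1.29% and 1.73%, so the median share in neutrophil-like cells was no higher than in T cell-like cells. Thinning left out 133 control and 176 diabetic macrophage-like cells, 275 and 434 neutrophil-like cells and 34 and 113 T cell-like cells, which were shallower.

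Ferritin made the bulk of the signal, and its chains parted by class. Fth1 in neutrophil-like cells was at 47832, 38064, 49432 and 35380 CPM in diabetic and 47870, 39478, 34927 and 28561 CPM in control wounds, that is, up to 4.94% of all UMIs of the class. Macrophage-like cells had 13506, 13439, 20054 and 15854 CPM in diabetic and 13398, 14885, 18235 and 15492 CPM in control wounds, with no overlap between the classes. The neutrophil-like level of Fth1 was 2.56 times the macrophage-like one (range 1.84 to 3.57) and that of 10.1% of all genes was also higher in 8 of 8 libraries. Monocyte-like cells lay between at 18058 to 28132 CPM, and T cell-like and dendritic-like cells had 5922 to 11662 and 9487 to 12983 CPM, ranges that overlap.

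Ftl1 had the reverse order with a smaller gap. Macrophage-like cells had 7218, 8537, 9944 and 7545 CPM in diabetic and 7878, 9834, 13492 and 11038 CPM in control wounds, and control wounds were higher on each of 4 days. Neutrophil-like cells had 4944, 7045, 8686 and 7448 CPM in diabetic and 4983, 7738, 9777 and 10223 CPM in control wounds. The macrophage-like level was 1.24 times the neutrophil-like one (range 1.01 to 1.58) and 3.61 times that of T cell-like cells (range 2.34 to 5.62). On some days the Ftl1 levels of macrophage-like and neutrophil-like cells were nearly equal.

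The ratio of heavy to light chain UMIs was higher in neutrophil-like than in macrophage-like cells. It had a median of 5.25 in neutrophil-like cells (range 2.79 to 9.67), 3.52 in T cell-like cells (2.0 to 5.80), 2.76 in monocyte-like cells (2.27 to 3.83), 2.47 in dendritic-like cells (1.84 to 3.39), 1.64 in macrophage-like cells (1.35 to 2.10) and 1.15 in osteoclast-like cells (0.954 to 1.22). Macrophage-like cells lay below neutrophil-like cells in each library, and the ranges of the 2 classes did not overlap, while those of neutrophil-like, T cell-like, monocyte-like and dendritic-like cells did. Adding Ftl1-ps1 to Ftl1 left the medians at 5.17 and 1.61 in these 2 classes. Heavy chains carry the ferroxidase site and light chains aid the forming of the mineral core. In neutrophil-like cells the ratio was 9.67, 5.40, 5.69 and 4.75 on days 1, 3, 5 and 7 of diabetic wounds and 9.61, 5.10, 3.57 and 2.79 in control wounds. The 8 macrophage markers in these cells summed to 456 and 537 CPM on day 1 and 9536 and 10782 CPM on day 7, for diabetic and control wounds, and their part in the ratio was not tested.

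**Figure D2:**
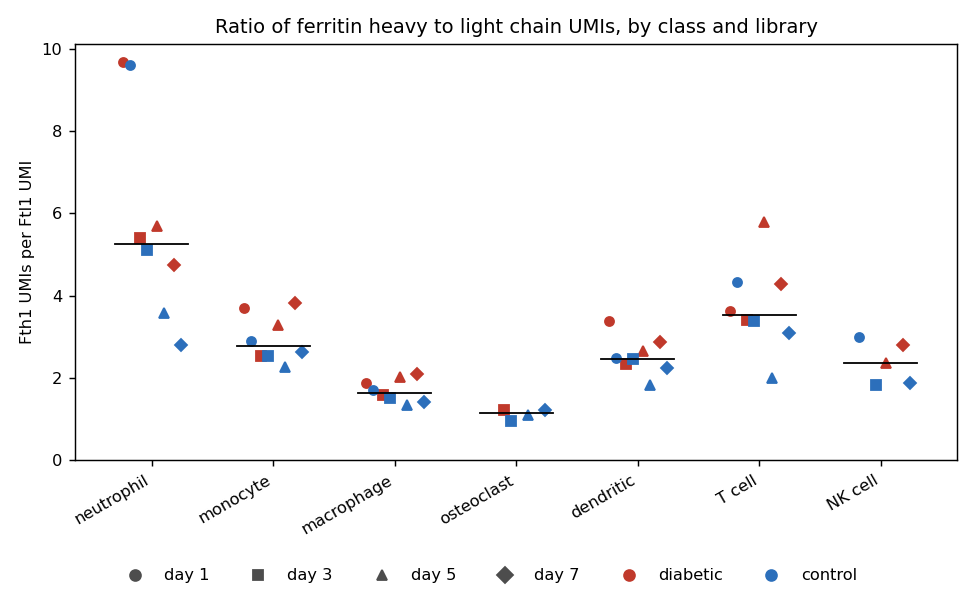
Fth1 UMIs per Ftl1 UMI (vertical axis, from 0) in 7 cell classes, 1 point per library with at least 20 cells of the class; colour marks the wound group, shape the day and the bar the median. By their medians neutrophil-like cells are highest, at 5.25, and osteoclast-like cells lowest, at 1.15, and T cell-like cells pass neutrophil-like cells in diabetic day 5 and control day 7.

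Slc40a1, the only known exporter of iron from cells, was low. Its level was higher in neutrophil-like than in macrophage-like cells in 7 of 8 libraries. The median was 5.37 times (range 0.891 to 18.0) over the 7 libraries where macrophage-like cells were above 0. Neutrophil-like cells had 36.6, 101, 113 and 41.8 CPM on days 1, 3, 5 and 7 of diabetic wounds and 37.9, 95.6, 107 and 86.3 CPM in control wounds. Both groups were low on day 1 and near 100 CPM on days 3 and 5, and on day 7 the ratio of diabetic to control was 0.484 (95% exact Poisson interval 0.395 to 0.591). Monocyte-like cells had only 2.44 to 20.5 CPM, so neutrophil-like cells were 14.1 times higher (range 4.21 to 43.1), in 8 of 8 libraries, as were 10.4% of all genes. In T cell-like cells Slc40a1 was at 0, 6.03, 4.73 and 2.45 CPM in diabetic and 5.24, 3.12, 27.2 and 7.57 CPM in control wounds. After thinning, a median of 7.62% of neutrophil-like cells had a Slc40a1 UMI (13.1% unthinned), against 0.263% of T cell-like cells (2.11% unthinned) and 1.31% of macrophage-like cells (4.74% unthinned), where median depths in a library were 2158.5 to 2899, 3464 to 4396.5 and 3327 to 11296 UMIs. On day 1, 91.7% of the Slc40a1 UMIs of the diabetic and 90.2% of those of the control library lay in neutrophil-like cells, which were 51.1% and 59.9% of the cells.

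Macrophage-like cells had almost no Slc40a1 on day 1 and more on the later days in both groups. They had 0, 10.3, 21.04 and 12.9 CPM on days 1, 3, 5 and 7 of diabetic wounds, from 0, 69, 63 and 97 UMIs, and 2.11, 16.3, 120 and 44.1 CPM in control wounds, from 2, 87, 2006 and 867 UMIs. Diabetic wounds were lower on days 3, 5 and 7, although the 2 ranges overlap. The ratio of diabetic to control was 0.634 on day 3 (95% exact Poisson interval 0.455 to 0.880), 0.175 on day 5 (0.134 to 0.225) and 0.293 on day 7 (0.235 to 0.362). These intervals, like all those given, cover counting error only, and on day 1 both libraries were at or under the 3 counts that a count of 0 allows, so no direction was read there. Macrophage-like cells passed neutrophil-like cells in Slc40a1 in 1 library, control day 5, where they held 82.3% of its Slc40a1 UMIs.

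Different macrophage-like clusters held most of the class on different days, the same ones in both groups. On day 5 the cluster led by Ms4a7, Fcrls and Trem2 held 254 of the diabetic and 1029 of the control macrophage-like cells, and its Slc40a1 was at 21.7 and 136 CPM. On day 7 the cluster led by Igf1 and Gdf15 held 833 and 2146 cells, and Slc40a1 was at 13.3 and 45.5 CPM. In both of these the diabetic library was again the lower one. T cell-like cells had ratios of 1.93 on day 3 (0.415 to 9.72, from 5 and 4 UMIs), 0.174 on day 5 (0.0777 to 0.365, from 11 and 26 UMIs) and 0.324 on day 7 (0.122 to 0.782). Markers of macrophages in the T cell-like cells of day 5 summed to 1208 CPM in the diabetic and 8347 CPM in the control library, and on day 7 to 3502 and 6055 CPM. The part of such RNA in the macrophage-like values was not tested. Slc40a1 was 4.45 times as high in macrophage-like as in T cell-like cells in the diabetic and 4.44 times in the control library of day 5.

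**Figure D3:**
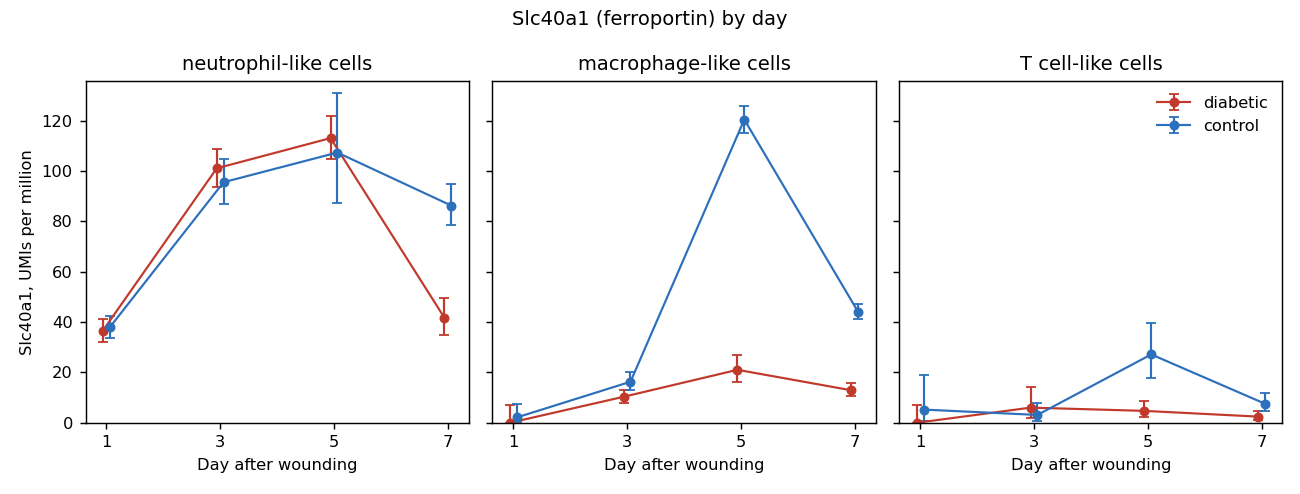
Slc40a1 in CPM (vertical axis, from 0) against the day after wounding in 3 cell classes, 1 library per point, red for diabetic and blue for control wounds; bars are 95% exact Poisson intervals and cover counting error only. The groups run together in neutrophil-like cells until day 5, and in macrophage-like cells the control library of day 5 reaches 120 against 21.04 in the diabetic one.

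Slc11a1, the phagosome pump, had its highest level in neutrophil-like cells. They had 709, 561, 572 and 343 CPM in diabetic and 733, 445, 507 and 365 CPM in control wounds, highest on day 1 and lowest on day 7 in both groups. Macrophage-like cells stayed within 233 to 306 CPM and monocyte-like cells within 193 to 307 CPM, ranges that overlap. The neutrophil-like level was 1.82 times the macrophage-like one (range 1.35 to 2.81) and higher in 8 of 8 libraries, as were 10.1% of all genes. T cell-like cells had 35.8 to 118 CPM.

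Tfrc, the importer, marked the osteoclast-like cells, and it stood among the leading genes of their cluster although it was left out of the clustering. They had 548 CPM in the diabetic library of day 3 and 351, 771 and 579 CPM in the control libraries of days 3, 5 and 7. Macrophage-like cells of the 8 libraries had 47.4 to 116 CPM, so the level was 6.44 times as high (range 4.47 to 8.48) in 4 of 4 libraries, as were 35.9% of all genes and, by 2-fold or more, 9.1%. Osteoclast-like cells were deep, with a median of 22530 UMIs, and after thinning, which left out 0 of them, a median of 35.2% had a Tfrc UMI (92.9% unthinned) against 6.59% of macrophage-like cells (26.6%) and 8.63% of T cell-like cells (25.7%). NK cell-like cells came next at 109 to 213 CPM and T cell-like cells at 87.7 to 154 CPM, and neutrophil-like cells had 31.3 to 89.8 CPM.

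In the control library of day 5 much of the whole-library value of Tfrc came from these cells. Osteoclast-like cells were 7.88% of the cells of the control library of day 5 and at most 0.852% in any other. They held 63.1% of its Tfrc UMIs, and the library stood at 249 CPM with them and 115 CPM without them. The other 3 control libraries had 43.0, 82.6 and 87.1 CPM and the diabetic libraries 33.6, 87.2, 58.4 and 60.7 CPM on days 1, 3, 5 and 7.

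Ncoa4, the ferritin carrier, was near the limit of detection. Over all cells it was at 4.36 to 12.9 CPM in a library, and in macrophage-like cells at 5.27 to 11.6 CPM against 7.04 to 12.1 CPM in T cell-like cells. Osteoclast-like cells had 20.4 CPM in the diabetic library of day 3 and 16.3, 20.6 and 14.1 CPM in the control libraries of days 3, 5 and 7. Their level was 2.04 times the macrophage-like one (range 1.78 to 2.35) and higher in 4 of 4 libraries, as were 35.9% of all genes. These values rest on 13 to 124 UMIs. After thinning, a median of 0.745% of T cell-like cells (2.97% unthinned), 0.634% of macrophage-like cells (4.69%) and 0.513% of neutrophil-like cells (1.79%) had an Ncoa4 UMI.

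Within macrophage-like cells the cluster led by Retnla, Ccl8, Lyve1 and Cd163, the haptoglobin-hemoglobin receptor, had its own profile. It had more Tfrc and more Blvrb than the Ms4a7-led cluster in 8 of 8 libraries, by medians of 2.29 times (range 1.23 to 4.24) and 1.65 times (1.04 to 2.39), where 4.78% of all genes were higher in each library. Fth1 was lower in 8 of 8, at 0.564 times (0.470 to 0.756), as were 7.29% of all genes, and Slc11a1 too, at 0.762 times (0.546 to 0.946). Hmox1 was higher in 7 of 8 libraries, by 1.33 times, except in control day 5. Against the Igf1-led cluster Tfrc was higher in 6 of 6 libraries, by 2.12 times, as were 5.99% of all genes, and Blvrb in 5 of 6. The counts of 7 of 8 and 5 of 6 libraries have no share of all genes beside them. The Retnla-led cluster held 23 to 315 cells of a library.

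Diabetic and control wounds were compared with day as a block. 0 of the 8 members passed an adjusted p of 0.05 over all genes tested (edgeR quasi-likelihood test, Benjamini-Hochberg adjustment) in all cells, neutrophil-like, monocyte-like, macrophage-like or dendritic-like cells, where the share of all genes called was 0%, 0.0466%, 0%, 0.00885% and 0.01%. At an unadjusted p under 0.05 there were 1, 1, 0, 3 and 2 of the 8 members in these fits, beside 11%, 9.83%, 6.21%, 11.2% and 6.23% of all genes, and DESeq2 called 0, 0, 0, 1 and 0 of them, beside 0.628%, 0.392%, 0.13%, 1.14% and 0.1% of all genes. The members' median log2 fold change was -0.30, 0.00, -0.19, -0.24 and -0.22, and that of all genes was 0.00, -0.01, 0.00, 0.00 and 0.00. Blvrb, Ftl1, Slc40a1 and Tfrc had negative values in 5 of 5 fits, and Fth1 in 0 of 5. The fits share libraries and the fit on all cells holds the cells of the others, so these signs are not independent. No share of all genes with the same sign in 5 of 5 fits is given, so no shared fall is read from them.

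Slc40a1 in macrophage-like cells came closest, with a log2 fold change of -1.69 ± 0.28 (SE, n = 4 libraries a group) and an adjusted p of 0.101 with edgeR. DESeq2 gave -1.68 with an adjusted p of 0.00146, and without day 5 the edgeR value was -1.30 with an adjusted p of 0.154. Over the alternatives tried the adjusted p lay between 4.35e-14 and 0.646, with the lowest without a filter on low counts and the highest without the block for day. Ftl1 had -0.32 ± 0.10 and Blvrb -0.44 ± 0.14, both with an adjusted p of 0.303, and both were lower in diabetic wounds on 4 of 4 days. Tfrc had -0.43 ± 0.20 (adjusted p = 0.477), and -0.14 without day 5. The 7 osteoclast markers, of which 6 were above 0 in each library, summed in macrophage-like cells to 140 to 323 CPM in diabetic and 173 to 1039 CPM in control wounds, highest in control day 5, and their part in the Tfrc value was not tested. Fth1, Hmox1 and Slc11a1 had 0.02 ± 0.10, -0.02 ± 0.20 and -0.02 ± 0.11.

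In the other fits Tfrc had -0.40 ± 0.16 and Ftl1 -0.27 ± 0.12 in dendritic-like cells (edgeR adjusted p = 0.768 and 0.773). Blvrb had -0.70 ± 0.27 in neutrophil-like cells (edgeR adjusted p = 0.438) and -0.84 ± 0.28 over all cells (adjusted p = 0.451), where it had -0.51 without day 5. On day 5 the diabetic library had 34.7 CPM of Blvrb over all cells against 140 CPM in the control library, where 44.7% of the cells were macrophage-like against 8.35%. Hmox1 had 0.07 ± 0.29 in neutrophil-like cells, whose ratio of diabetic to control was 2.20 on day 3 and 0.413 on day 5. Over all cells 4 members (Hmox1, Slc40a1, Tfrc and Blvrb) were over 2-fold lower in the diabetic library of day 5, where 16.5% of all genes were, and Slc40a1 alone on day 7, at 0.291 times the control, where 3.28% of all genes were. The diabetic library was higher for Hmox1 on day 3 and lower on day 5 in neutrophil-like, monocyte-like, macrophage-like and T cell-like cells alike, and with 1 library a group and day these ratios have no test.

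**Figure D4:**
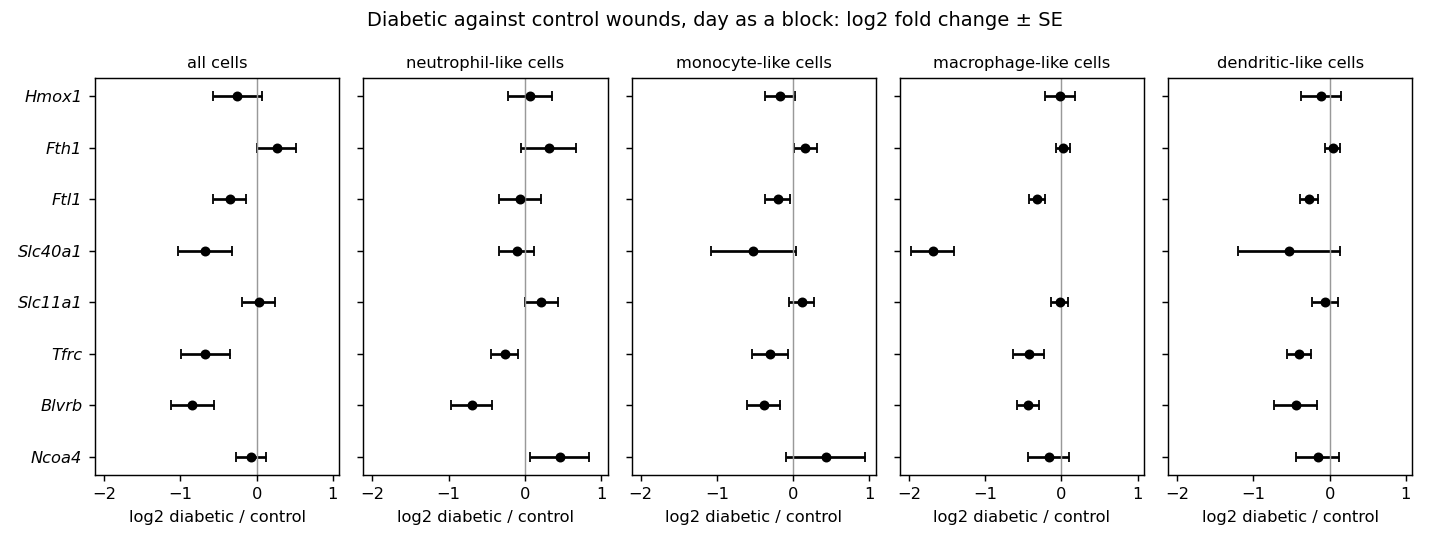
Log2 fold change of diabetic against control wounds with day as a block (horizontal axis) for each gene in 5 fits; points are edgeR estimates and bars 1 SE, n = 4 libraries a group. Slc40a1 in macrophage-like cells stands at -1.69, and 0 values passed an adjusted p of 0.05.

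The course over days was tested as 1 slope shared by both groups. In neutrophil-like cells 3 of the 8 members changed, where 42.9% of all genes did (22.5% rose and 20.4% fell). Slc11a1 fell by 0.31 ± 0.05 on the log2 scale per day (edgeR adjusted p = 0.00103), Fth1 fell by 0.24 ± 0.07 (adjusted p = 0.0177), and Blvrb rose by 0.40 ± 0.06 per day (adjusted p = 0.000666). Over 17 alternatives the slope of Slc11a1 lay between -0.33 and -0.15 and was called in 17. That of Fth1 lay between -0.28 and -0.083, called in 12, and that of Blvrb between 0.16 and 0.56, called in 16. Slopes use size factors between libraries (TMM), while CPM are scaled by UMIs alone, so the 2 are not on the same scale. With library size alone the Fth1 slope was -0.083 and was not called, and the median slope of all genes was 0.17. Blvrb was at 5.75, 17.7, 16.6 and 57.1 CPM in diabetic and 7.16, 19.3, 89.8 and 80.8 CPM in control wounds on days 1, 3, 5 and 7. The make-up of the class by cluster differed between days and groups. The largest cluster, led by Igkc and Cxcr2, held 15.7% of neutrophil-like cells on day 1 and 57.6% on day 7 of diabetic wounds and 11.8% and 91.4% in control wounds, and on day 5 it held 30.1% and 81.2%. Over all cells Slc11a1 alone was called, at -0.25 ± 0.05 per day (adjusted p = 0.0302), where 10.3% of all genes were, and Fth1 had -0.21 ± 0.06 (adjusted p = 0.0531). The Fth1 call in neutrophil-like cells was lost without diabetic day 7, control day 1 or control day 7 (slopes of -0.24, -0.20 and -0.23, adjusted p = 0.0802, 0.0835 and 0.108), where 22.4%, 26.9% and 23% of all genes were called. Over all cells, without diabetic day 1, diabetic day 7 or control day 1 the Slc11a1 call was lost, with slopes of -0.24, -0.22 and -0.20 and adjusted p of 0.118, 0.139 and 0.176, where 0.0797%, 0.022% and 0.00724% of all genes were called.

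Markers moved with these slopes. In neutrophil-like cells the 8 neutrophil markers summed to 61672, 32024, 25437 and 15555 CPM on days 1, 3, 5 and 7 of diabetic wounds and to 49242, 35705, 18301 and 14865 CPM in control wounds. The 8 macrophage markers summed to 456, 2632, 2087 and 9536 CPM and to 537, 2159, 8404 and 10782 CPM, with 8 of 8 markers above 0 in each library. Blvrb was at 9.51, 21.7, 9.03 and 15.9 CPM in T cell-like cells of diabetic wounds and 2.62, 13.3, 67.9 and 34.1 CPM in those of control wounds, so that the neutrophil-like level was 0.604 to 3.59 times that of T cell-like cells. With cells named singly from their marker scores, in place of clusters, the slope of Blvrb was 0.16 per day (adjusted p = 0.177) and that of Fth1 -0.09 (adjusted p = 0.317), while Slc11a1 was still called, as were 8.47% of all genes. The part of macrophage RNA in the slopes was not tested. In the largest neutrophil-like cluster, which had at least 20 cells in all 8 libraries, Slc11a1 was at 764 CPM on day 1 and 368 CPM on day 7 of diabetic wounds and at 762 and 364 CPM in control wounds. Its Blvrb went from 11.9 to 50.3 CPM and from 9.31 to 81.1 CPM. Its Fth1 was at 44789, 35954, 44423 and 37233 CPM on days 1, 3, 5 and 7 of diabetic wounds and at 39377, 38313, 33328 and 28194 CPM in control wounds.

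**Figure D5:**
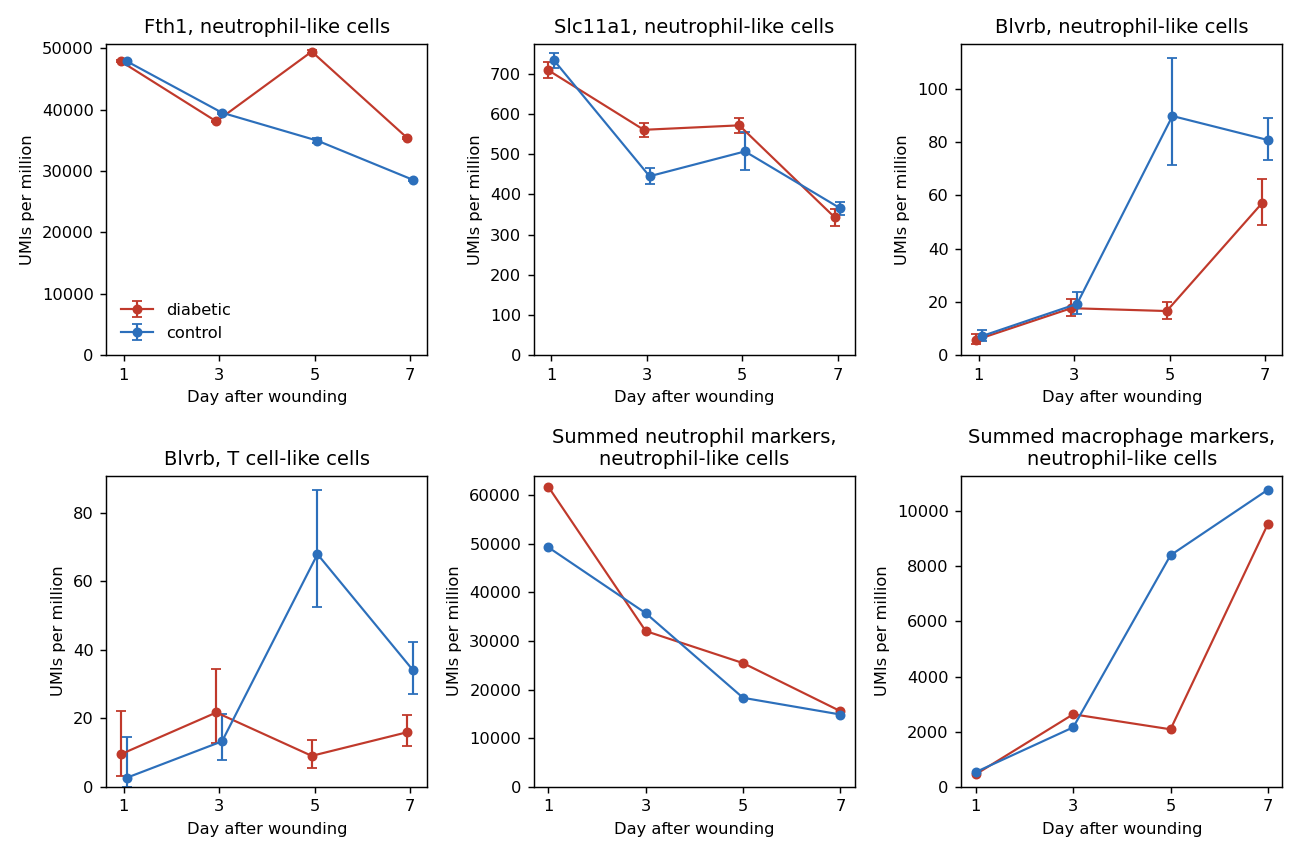
CPM (vertical axes, from 0) against the day after wounding, 1 library per point, red for diabetic and blue for control wounds: Fth1, Slc11a1 and Blvrb in neutrophil-like cells, Blvrb in T cell-like cells, and the summed neutrophil and macrophage markers in neutrophil-like cells. Bars on the genes are 95% exact Poisson intervals for counting error. CPM are scaled by UMIs alone, without the size factors used for the slopes. Slc11a1 and the neutrophil markers fall while Blvrb and the macrophage markers rise between days 1 and 7.

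In monocyte-like, macrophage-like and dendritic-like cells 0 members changed over days, where 0.725%, 0.859% and 0.303% of all genes did (edgeR), and 1, 1 and 0 members had an unadjusted p under 0.05, beside 12.8%, 13.1% and 11.3% of all genes, and DESeq2 called 0, 0 and 0 members, beside 2.92%, 2.71% and 1.66%. Slc40a1 had the steepest slope of the members in macrophage-like cells, 0.41 ± 0.18 per day (adjusted p = 0.348). The slopes of diabetic and control wounds were then compared. In neutrophil-like and macrophage-like cells 0 members and 0% of all genes passed, with 0 and 0 members at an unadjusted p under 0.05 in edgeR, beside 2.58% and 2.2% of all genes, and 0 and 0 members called by DESeq2, beside 0.0186% and 0.00885% of all genes.

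The rest of the pathway was read from 5 lists of 62 other genes, of which 61 were found. Between diabetic and control wounds 0 of them were called in any of the 5 fits (edgeR), with 11 of 56, 7 of 54, 7 of 51, 12 of 54 and 6 of 51 at an unadjusted p under 0.05, beside 11%, 9.83%, 6.21%, 11.2% and 6.23% of all genes. The 56 tested over all cells had a median log2 fold change of -0.13, and the 54 tested in macrophage-like cells -0.01. Medians of single lists are given for macrophage-like cells only. There the median was 0.28 for the 13 tested partners of iron uptake, transport and export and -0.26 for the 11 of heme synthesis. It was -0.15 for the 11 of heme uptake, breakdown and export, -0.19 for the 10 of iron-sulfur cluster assembly and 0.08 for the 9 of iron sensing and control. Of the 13 partners, 11 were higher and 2 lower in diabetic wounds. Among them 7 had an unadjusted p under 0.05 (edgeR), against 0 to 2 genes in each other list, and 0 genes of the lists passed.

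Over days, 22 of 53 tested genes of the lists rose and 12 fell in neutrophil-like cells, beside 22.5% and 20.4% of all genes. Those that rose with the smallest adjusted p were Hfe (0.56 per day), a partner of the transferrin receptor, Slc48a1 (0.36), which exports heme from lysosomes, Cpox (0.57), an enzyme of heme synthesis, and Steap3 (0.45), an iron reductase of endosomes. Those that fell were Lcn2 (-0.50), a binder of bacterial iron carriers, Slc25a37 (-0.36), which brings iron into mitochondria, Hp (-0.26), which binds free hemoglobin, and Alas1 (-0.26), the first enzyme of heme synthesis. Hfe and Slc48a1 rose beside Blvrb and the macrophage markers, and Lcn2 fell beside Slc11a1 and the neutrophil markers. Hp was at 476, 436, 346 and 246 CPM in neutrophil-like cells on days 1, 3, 5 and 7 of diabetic wounds. In control wounds it was at 364, 609, 439 and 323 CPM, above its day 1 level on days 3 and 5. The part of other cells was not tested here either. Over all cells 1 of 56 tested genes rose, Slc39a8 (0.23 per day), and 6 fell, among them Slc25a37 (-0.29), Lcn2 (-0.61), Alas1 (-0.22) and Hp (-0.39), beside 10.3% of all genes called in either direction. In monocyte-like, macrophage-like and dendritic-like cells 0 of the 50, 54 and 50 tested genes were called (edgeR), with 6, 4 and 7 at an unadjusted p under 0.05, beside 12.8%, 13.1% and 11.3% of all genes.

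The genes most like each member were taken over 54 sums of a library and class, which share libraries, by Pearson's r of log2(CPM + 1) among 5895 genes, as a description. Hmox1 ran with Lyz2 (0.915), Abca1 (0.911) and Ctsb (0.887), and Fth1 with Rnf149 (0.951), Cd14 (0.945) and Il1rn (0.928). Ftl1 ran with its near copy Ftl1-ps1 (0.912), with Pla2g7 (0.894) and with Atp6ap1 (0.866). Slc11a1 ran with Rab20 (0.905), Tmem38b (0.902) and Spp1 (0.896). Blvrb ran with Hexa (0.887), Slc48a1 (0.883) and Stab1 (0.882). The likeness was weaker for Tfrc, with Rcc2 (0.764), Nsun2 (0.759) and Cox8a (0.758), for Slc40a1, with Hilpda (0.739), Entpd1 (0.735) and Fuca2 (0.726), and for Ncoa4, with Ss18l2 (0.598), St6gal1 (0.592) and Glb1 (0.574).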

How the data were processed

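The authors deposited 1 table of UMI counts per library, genes by cell barcodes. According to the study's methods reads were trimmed with fastp, UMIs were extracted with UMI-tools and reads were aligned with STAR to an Ensembl mouse genome, while the submitters' processing notes list fastp 0.20.1 and mm9, and the platform is named differently in the methods and the record. Cells with more than 200 genes and under 20% mitochondrial UMIs were kept. Cells were clustered with scanpy 1.11.5 (2000 variable genes, 10 components, 30 neighbours, Leiden resolution 0.8), and clusters were named from marker lists. Doublet scores were computed, and no cell was removed for them in the results given. UMIs were summed per library and class (at least 20 cells) and tested with edgeR 4.0.16 in R 4.3.3 (quasi-likelihood F test, TMM, filterByExpr, Benjamini-Hochberg adjustment over all genes tested, threshold 0.05), with DESeq2 1.42.0 as an alternative. Day was a block for the group contrast and a number for slopes. Of the pathway lists at most 4 genes a direction and comparison were named, those with the smallest adjusted p, and for likeness the 3 genes with the highest r among those with a mean of at least 20 CPM. The members and lists were chosen with earlier results of these data known.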

Additional observations from a re-analysis of the deposited data

How the results depend on the processing

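Days served as pairs, 1 library of each group on each day. In macrophage-like cells the count of members that differed between groups, 0, became 2 without a filter on low counts (Ftl1 and Slc40a1), 1 with DESeq2 and 1 with the members kept among the clustered genes (Slc40a1 both times), where 1.78%, 1.14% and 0.0627% of all genes were called, and lay between 0 and 1 with a day left out (1 without day 3, Slc40a1 at -2.12 with an adjusted p of 0.0121, where 0.0371% of all genes were called). The slope over all cells, 1 call, gave 2 calls with RLE size factors and 2 with DESeq2 (Fth1 and Slc11a1), where 11.3% and 21.4% of all genes were called, and 0 to 1 with a library left out, where 0.00724% to 11.8% were. The slope in neutrophil-like cells, 3 calls, gave 5 with library size alone, which moved the median slope of all genes to 0.17 and called 53.8% of them (Hmox1, Ftl1 and Tfrc gained and Fth1, at -0.083, lost its call), and 1 with cells named singly, where 8.47% were called; with a library left out it gave 2 to 3, where 22.4% to 47.3% were. In dendritic-like cells 0 to 1 slopes were called with a library left out (Hmox1 without diabetic day 3, where 1.09% of all genes were). In neutrophil-like cells the slope of Hmox1 turned to -0.047 with cells named singly, that of Ftl1 to 0.14 with library size alone and lay between -0.044 and 0.019 with a library left out (above 0 without diabetic day 7), and that of Tfrc to -0.0019 with members clustered and lay between -0.030 and 0.033 with a library left out (below 0 without diabetic day 1). The Ftl1 share of macrophage-like over neutrophil-like cells after thinning was 1.00, but with medians of 98.3% and 98.2% of cells it was near its ceiling and cannot show a difference in level. Other causes were not tested. The depth limits Slc40a1 in macrophage-like cells of day 1 and Ncoa4 in all classes.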
